A study of Caenorhabditis elegans with 18 samples.

Results

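Subunits of the BBSome and Arl small GTPases of the cilium, 9 genes in all, were followed through every deposited library: bbs-1, bbs-2, bbs-5, bbs-8, bbs-9 and osm-12, and arl-3, arl-6 and arl-13. They were taken by gene name, and all 9 were found among the 42400 rows of the mixed-population small RNA (sRNA) tables and the 42048 rows of the young-mother tables. The set was chosen by what was already known of sRNA levels in these data, in which bbs-5 was much lower in the mutants than in N2. Differences of the 9 genes from N2 in the sRNA libraries are therefore given as a description. Where a fit's calls on these differences are given, nothing is read from them.

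The BBSome is a coat-like protein complex that moves with intraflagellar transport (IFT) and carries membrane proteins into and out of the cilium. Arl6 recruits it to membranes in mammals, and Arl13b of mammals acts on Arl3, which releases lipid-modified cargo inside the cilium. In Caenorhabditis elegans only sensory neurons carry cilia, and loss of these genes is known for defects of ciliary traffic and of sensing. Many worm genes are also the template of sRNAs with a 5′ triphosphate, made by RNA-dependent RNA polymerases and amplified in RNA interference (RNAi). No sequence of these genes is shown, because no sequence was used here.

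Whole worms grown at 20 C gave 14 sRNA and 4 mRNA libraries in 9 groups of 2. Mixed populations on NA22 bacteria were N2, the wild-type strain, and 4 meg-3 meg-4 double mutant lines, which share meg-3(ax3055) and carry meg-4(ax3052) in line 1, meg-4(ax4310) in line 2 (JH3672), meg-4(ax4311) in line 3 (JH3673) and meg-4(ax4312) in line 4 (JH3674). MEG-3 and MEG-4 are disordered proteins that build the P granules of the germ lineage. Young mothers on HT115 bacteria with the empty RNAi vector L4440 were N2 and rde-11(hj37), which lacks a factor of sRNA amplification in RNAi, for sRNA, and N2 and line 1 (JH3475) for mRNA. Stage and food thus differ between the lines' sRNA libraries and the others, and each table was compared only with its own N2. For line 2 the title (mixed population) and a group label (young mother) disagree, and the title was followed. The labels do not say that replicates were separate cultures, so p-values measure only the spread between these libraries.

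The sRNA libraries held 3820363 to 7465897 reads and the mRNA libraries 21994906 to 45231464. sRNA values were on the reads-per-million scale (RPM), over all genes of a table. In whole worms fewer cells of a type and less RNA per cell cannot be told apart. A list of 8 markers of ciliated neurons summed to 76.9 and 84.3 on the deposited mRNA scale in N2 and to 77.1 and 78.3 in line 1, with none of the 8 at 0 in both libraries of a group. The gene odr-4 alone was 71.2 and 78.9 in N2 and 70.6 and 72.5 in line 1, so the sum follows that gene. The other 7 summed to 5.67 and 5.40 in N2 and to 6.50 and 5.78 in line 1. In the sRNA libraries these 7 summed to 3.32 and 5.50 RPM in mixed N2, 6.84 to 13.5 in the lines, 10.1 and 12.98 in young N2, and in rde-11 to 15.3 and 15.02. In the lines this sum mainly follows tax-4 and osm-9. The mean of tax-4 was 0.131 RPM in mixed N2 and 0.736 to 6.82 in the lines, and that of osm-9 was 2.16 and 2.26 to 5.64. The mean of odr-3 went the other way, from 0.630 to between 0.085 and 0.171. In the lines tax-2, gpa-3, ocr-2 and osm-6 had means of at most 1.77 RPM. A list of 8 germline genes summed to 1436 and 1123 RPM in mixed N2, 650 to 986 in the lines, 930.0 and 1201 in young N2 and 1319 and 1525 in rde-11, and to 4217 and 4289 on the mRNA scale in N2 against 3418 and 3545 in line 1. The part of either list in the results below was not tested. As a check of the labels, meg-3 mRNA was 92.3 and 94.5 in N2 against 0.312 and 0.284 in line 1, and meg-4 mRNA was 45.3 and 43.6 against 0 and 0. The sRNAs of meg-4 were at 35.1 and 49.2 RPM in mixed N2 and at 0 to 0.457 in the 8 line libraries. For rde-11 mutants no mRNA library was analysed, and sRNAs of rde-11 were at 658 and 623 RPM in N2 and 773 and 711 in the mutant, which does not check the label. The mRNA of rde-11 was 30.1 and 30.8 in N2 and 8.28 and 9.64 in line 1, a log2 difference of -1.66 (SE 0.10, limma adjusted p = 0.000125), and sRNAs of rde-11 were 2.37 to 9.69 times the N2 mean in the 4 lines. Whether the level of rde-11 has a part in any sRNA value below was not tested.

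In N2 nearly all sRNAs of the 9 genes mapped to bbs-5 and arl-13. Together they made 97.6% of the members' sRNAs in mixed N2 and 98.3% in young N2 mothers. Per kilobase of gene span, the mean sRNA level in mixed N2 was 118 RPM for bbs-5, 64.8 for arl-13, 2.47 for bbs-1 and under 0.2 for each of the other 6. Among the 24611 genes with any sRNA read in mixed N2, bbs-5 ranked 387 from the highest in RPM and arl-13 ranked 592. The sRNA levels of subunits of one complex thus ranged from 0 to 355 RPM in mixed N2.

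**Figure D1:**
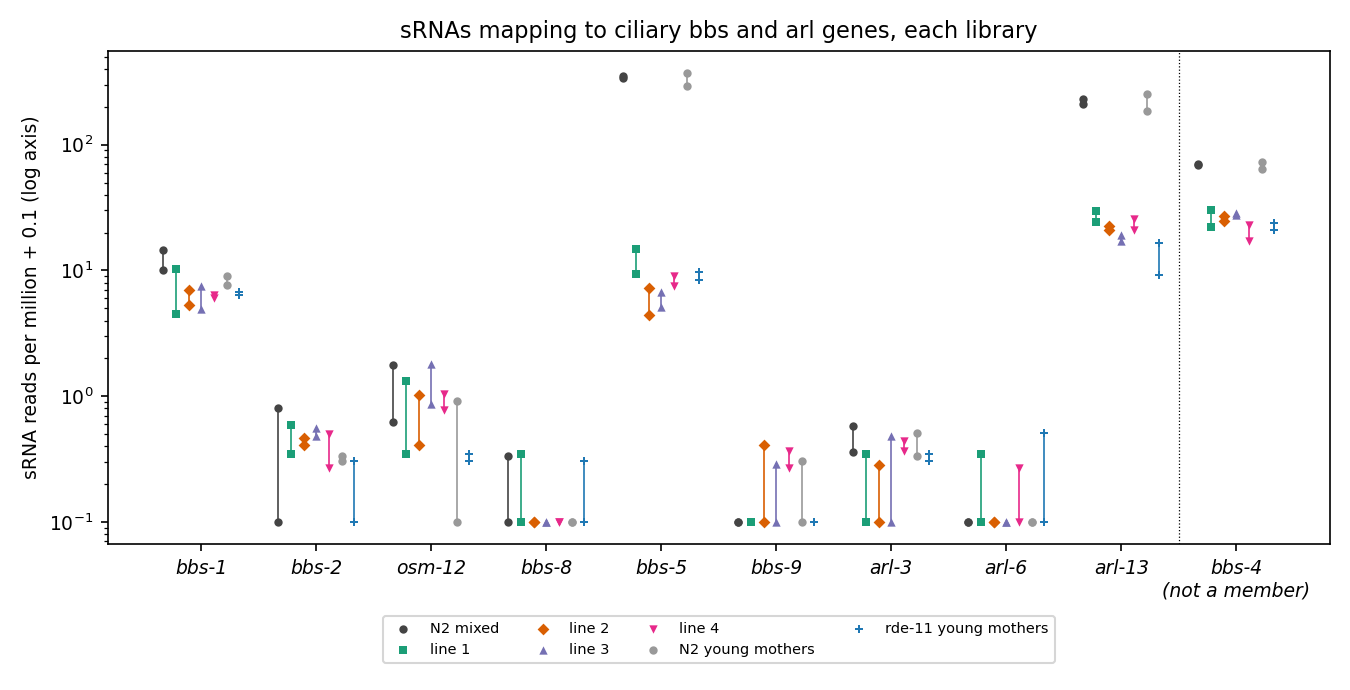
sRNA level of each gene in each of the 14 sRNA libraries, in RPM plus 0.1 on a log axis; symbols are libraries and the thin line joins the 2 of a group, and bbs-4, not one of the 9, is at the right. The N2 libraries of bbs-5 and arl-13 lie far above all mutant libraries, while the other members lie near 10 RPM or below 2 in every group.

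BBS-5 is a core BBSome subunit, whose human counterpart is mutated in Bardet-Biedl syndrome. Its sRNA level was 339 and 355 RPM in mixed N2. Line 1 had 9.34 and 14.6 RPM, line 2 had 4.29 and 7.20, line 3 had 5.02 and 6.65, and line 4 had 8.97 and 7.49. All 8 line libraries lay far below both N2 libraries, and the lowest N2 library was 23.1 times the highest line library. The mean left in the lines was 3.46%, 1.66%, 1.68% and 2.37% of N2, in the order of the lines, with 28 to 67 reads behind each mutant value against 1356 and 1427 in N2. Young N2 mothers had 370.3 and 294 RPM, and rde-11 mothers had 8.37 and 9.54, or 2.69% of N2. The log2 difference (log2 of RPM + 1, mutant minus N2) was -4.77, -5.72, -5.68 and -5.24 in lines 1 to 4 and -5.06 in rde-11. Ordered from the lowest difference among all genes tested in its table, bbs-5 stood in place 6 of 6821 in line 1, place 1 of 6678 in line 2, place 1 of 6653 in line 3, place 2 of 6590 in line 4 and place 3 of 7855 in rde-11. In the authors' deposited table the log2 value of bbs-5 is -4.55, -5.44, -5.37 and -4.74 for lines 1 to 4 and -5.29 for rde-11. These log2 values and the places come from the same libraries that led to the choice of the set. They are a description and no further support.

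ARL-13, the worm counterpart of Arl13b, is a GTPase of the ciliary membrane. Its sRNA level was 211.5 and 229.8 RPM in mixed N2. Line 1 had 29.5 and 24.4 RPM, line 2 had 22.4 and 20.9, line 3 had 19.2 and 17.1, and line 4 had 25.4 and 20.8. Here too the groups did not overlap, and the lowest N2 library was 7.17 times the highest line library. The mean left was 12.2%, 9.80%, 8.23% and 10.5% of N2 in lines 1 to 4. Young N2 mothers had 255 and 187 RPM of arl-13, and rde-11 mothers had 16.5 and 9.13, or 5.802% of N2. The log2 difference was -2.99, -3.29, -3.53 and -3.21 in the lines and -4.04 in rde-11.

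Only bbs-5 and arl-13 passed the filter of a mean of at least 10 RPM over the 4 libraries of a table, in each of the 5 sRNA tables, so 7 of 9 members were not tested there. With limma on log2 of RPM + 1, 2 of these 2 had an adjusted p under 0.05 and a lower level in every one of these tables, an outcome that the choice of the set fixes and that is no test. Over all genes tested the share called lower was 13.8% in line 1, 52.8% in line 2, 54.4% in line 3, 66.7% in line 4 and 8.56% in rde-11. These shares follow the scaling: with the trimmed mean of M-values (TMM) they were 7.71%, 9.93%, 8.67%, 13.1% and 10.9%; the count of members was again 2 of 2 in each. The median log2 difference of all genes was -0.34, -0.56, -0.59 and -0.77 in lines 1 to 4 and 0.16 in rde-11 on the RPM scale, and -0.04, -0.11, -0.05, -0.18 and 0.05 with TMM. MicroRNA reads made 22.7% to 27.8% of the mixed N2 libraries and 30.0% to 38.8% of the line libraries, and their part in these medians was not tested. Nothing is read from the counts of members beside these shares.

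BBS-1, another BBSome subunit, had few sRNAs. It was at 14.5 and 9.95 RPM in mixed N2 and between 4.43 and 10.3 RPM in the 8 line libraries, and the ranges overlapped in line 1 alone. Young N2 mothers had 8.92 and 7.63 RPM, and rde-11 mothers 6.65 and 6.29. The means of the lines were 49.4% to 60.1% of N2. With the filter lowered to a mean of at least 1 RPM, bbs-1 was called lower in lines 2, 3 and 4 and not in line 1 or rde-11, where 23.5%, 25.9%, 35.6%, 5.64% and 5.71% of all genes were. edgeR on recovered reads of genes with at least 10 reads called bbs-1 in none of the 5. As for bbs-5 and arl-13, these differences belong to the contrast that chose the set and are given as a description.

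The remaining 6 members were bbs-2, osm-12 (the worm BBS7) and bbs-9 as BBSome subunits, bbs-8 with its tetratricopeptide repeats, and the GTPases arl-3 and arl-6. Together they had 105 sRNA reads in the 14 libraries. Of their 84 library values 37 were at 0 reads, 39 at 1 to 3 reads and 8 above, and the highest was 9 reads (osm-12 in line 3). In RPM they lay between 0 and 1.71, where a count of 0 allows up to 0.402 to 0.785 RPM depending on the library (3 reads, counting error only). A difference between N2 and mutants was not detectable for these genes at this depth. In mixed N2, osm-12 was at 1.66 and 0.524 RPM, bbs-2 at 0.712 and 0, arl-3 at 0.475 and 0.262, bbs-8 at 0.237 and 0, and bbs-9 and arl-6 at 0 in both libraries.

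Whether the 4 lines differ among themselves was asked in one fit over the 10 mixed-population libraries. Its contrasts are among the lines only, but the N2 libraries enter the filter and the estimate of the spread. The N2 mean of bbs-5, 346.8 RPM, carried it past the filter of a mean of at least 10 RPM, with line means from 5.75 to 11.996. For bbs-5 the test is therefore not independent of the choice of the set, and no conclusion is drawn from it. The mean sRNA level of bbs-5 was highest in line 1 at 11.996 RPM, followed by line 4 at 8.23, line 3 at 5.84 and line 2 at 5.75, a span of 2.09 times. The libraries of lines 2 and 3 overlapped, those of line 4 lay above both, and those of line 1 above line 4. The moderated F test of limma gave bbs-5 an adjusted p of 0.0561, and arl-13, with a span of 1.49 times from line 3 to line 1, an adjusted p of 0.135. Neither of the 2 members tested was called, while 8.64% of the 6356 genes in the fit were. At an unadjusted p under 0.05 both were, as were 35.02% of all genes in the fit, and edgeR on recovered reads also called neither. The value of bbs-5 lies near the threshold: over 18 alternatives its adjusted p ran from 0.0211 to 0.284. The lowest value, which would be a call, came from the fit with the replicate number as a block. Without N2 replicate 1, N2 replicate 2 or line 2 replicate 2 it was 0.0396, 0.0362 and 0.0480.

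The mRNAs of the 9 genes were scarce in whole young mothers. On the deposited per-million scale they lay between 0.131 and 1.92, with 4 to 68 reads per library, so none passed the filter of a mean of at least 10. They were therefore tested with edgeR's quasi-likelihood test on recovered whole reads over the 18948 genes with at least 10 reads in all, a setting chosen after seeing the data. None of the 9 was called at an adjusted p under 0.05, where 3.09% of all genes in this fit were called in either direction. At an unadjusted p under 0.05 it was 1 of 9 (25.8% of all genes), and limma with no filter also called none, with 1 of 9 at an unadjusted p under 0.05 (19.7% of all genes in that fit).

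**Figure D2:**
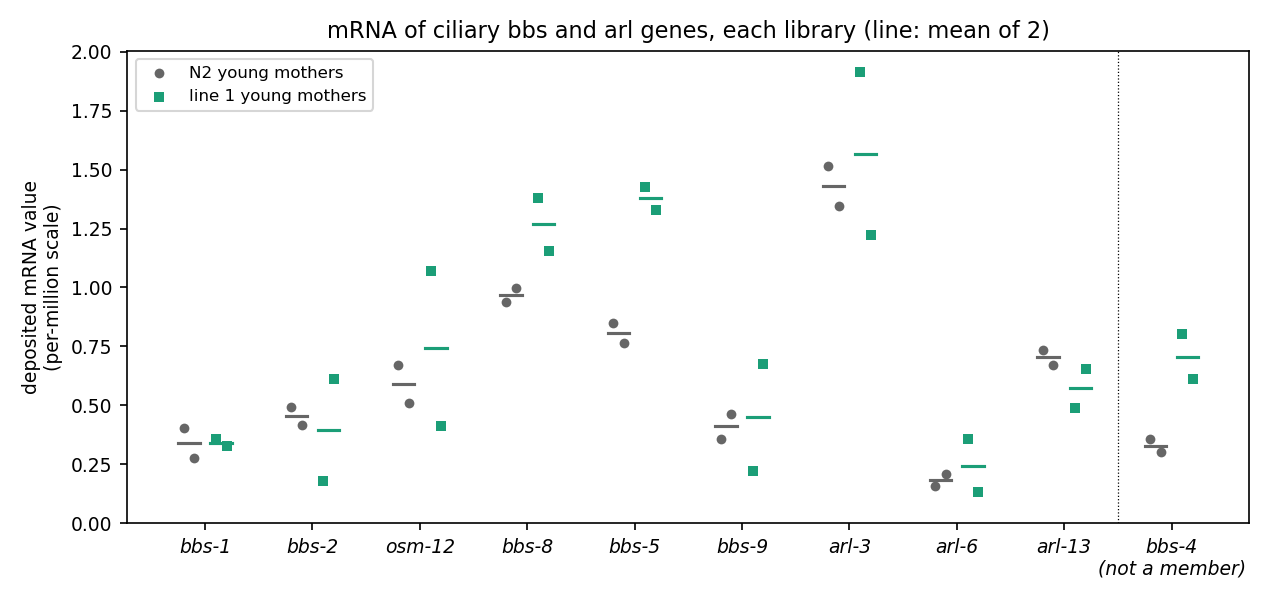
mRNA value of each gene in the 2 N2 and 2 line 1 libraries of young mothers, on the deposited per-million scale; points are libraries and the bar is their mean. Both line 1 libraries lie above both N2 libraries for bbs-5 and bbs-8 and below them for arl-13.

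For bbs-5 the mRNA value was 0.848 and 0.765 in N2 and 1.43 and 1.33 in line 1, from 38, 33, 32 and 61 reads. Both line 1 libraries were above both N2 libraries, with a mean 1.71 times that of N2. The log2 change was 0.80 in edgeR (unadjusted p = 0.0106, adjusted p = 0.0987) and 0.77 in DESeq2, with a 95% interval from -0.16 to 1.70. With the replicate number as a block, edgeR gave 0.81 and an adjusted p of 0.0222, although nothing in the labels says that equal numbers pair libraries. In the deposited table of the authors, no adjusted p is given for the mRNA of any member. With 2 libraries a group and few reads, a change of the size measured could not be told from none.

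The mRNA of arl-13 was 0.736 and 0.672 in N2 and 0.490 and 0.654 in line 1, from 33, 29, 11 and 30 reads. Both line 1 libraries were lower, but the edgeR log2 change of -0.22 had an adjusted p of 0.685 and the DESeq2 interval ran from -1.50 to 0.94. The 2 genes that carried most of the sRNAs in N2 had mRNA differences of opposite sign, neither past the threshold.

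Among the other subunits, bbs-8 mRNA was 0.937 and 0.997 in N2 and 1.38 and 1.16 in line 1 (edgeR log2 change 0.40, adjusted p = 0.314). The bbs-1 mRNA, at 0.402 and 0.278 in N2 and 0.356 and 0.327 in line 1, overlapped between the groups. So did osm-12, bbs-2 and bbs-9. The line 1 libraries of these 3 differed from each other more than the groups did, with bbs-2 at 0.178 and 0.611, bbs-9 at 0.223 and 0.676, and osm-12 at 1.07 and 0.414. Line 1 replicate 1 was also the shallowest mRNA library, at 21994906 reads. Of the GTPases, arl-3 was at 1.52 and 1.35 in N2 and 1.92 and 1.22 in line 1, and arl-6 at 0.156 and 0.209 in N2 and 0.356 and 0.131 in line 1.

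In all, both line 1 libraries were higher than both N2 libraries for 2 of 9 members and lower for 1 of 9. Over all 18948 genes these shares were 27.8% and 29.8%. The median edgeR log2 change was 0.22 over the 9 members, 8 of which were above 0, and 0.06 over all genes, of which 56.0% were above 0. In limma with no filter 7 of the 9 members were above 0, with a median of 0.07.

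A further BBSome subunit, bbs-4, was not among the 9 and passed the filter in every sRNA table. Of all genes tested, 13.8% to 66.7% were called lower in the lines and 8.56% in rde-11. With TMM these shares were 7.71% to 13.1% and 10.9%. The list that holds bbs-4 was made with earlier results of these data known, so tests of bbs-4 are not independent of them. Its sRNAs were at 70.7 and 69.4 RPM in mixed N2. Line 1 had 21.9 and 30.3 RPM, line 2 had 24.7 and 27.1, line 3 had 28.5 and 27.4, and line 4 had 22.8 and 17.2. All 8 line libraries were below both N2 libraries, and the log2 changes were -1.41, -1.40, -1.30 and -1.77 (limma, adjusted p from 3.05e-10 to 6.88e-05; with TMM -0.75 to -1.18, adjusted p from 0.00114 to 0.00619). In rde-11 bbs-4 fell from 72.6 and 63.5 to 20.9 and 23.9 RPM, a log2 change of -1.56 (SE 0.15, adjusted p = 0.000199). Its mRNA was 0.357 and 0.301 in N2 and 0.801 and 0.611 in line 1, higher in both libraries, with an edgeR log2 change of 1.09 and an adjusted p of 0.114.

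The other listed genes of the cilium and of the Arf family numbered 64, bbs-4 included, and 63 were found. In lines 1 to 4 the genes past the filter numbered 20, 21, 21 and 20, and 6, 12, 11 and 14 of them fell while 1, 2, 2 and 1 rose. With TMM 6, 4, 4 and 5 fell and 4, 6, 6 and 4 rose, so most of the falls called in lines 2 to 4 depended on the scaling. Their median log2 change was -0.45, -0.58, -0.56 and -0.89 in lines 1 to 4, beside the medians of all genes given above. In rde-11, 7 of 23 rose and 3 fell on the RPM scale, and 4 rose and 6 fell with TMM, with a median of 0.17. Of all genes tested, 3.03%, 5.83%, 5.83% and 5.40% were called higher in lines 1 to 4 and 18.3% in rde-11. With TMM these shares were 6.35%, 12.2%, 16.1% and 13.6% in the lines and 9.92% in rde-11. The shares called lower are given above.

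**Figure D3:**
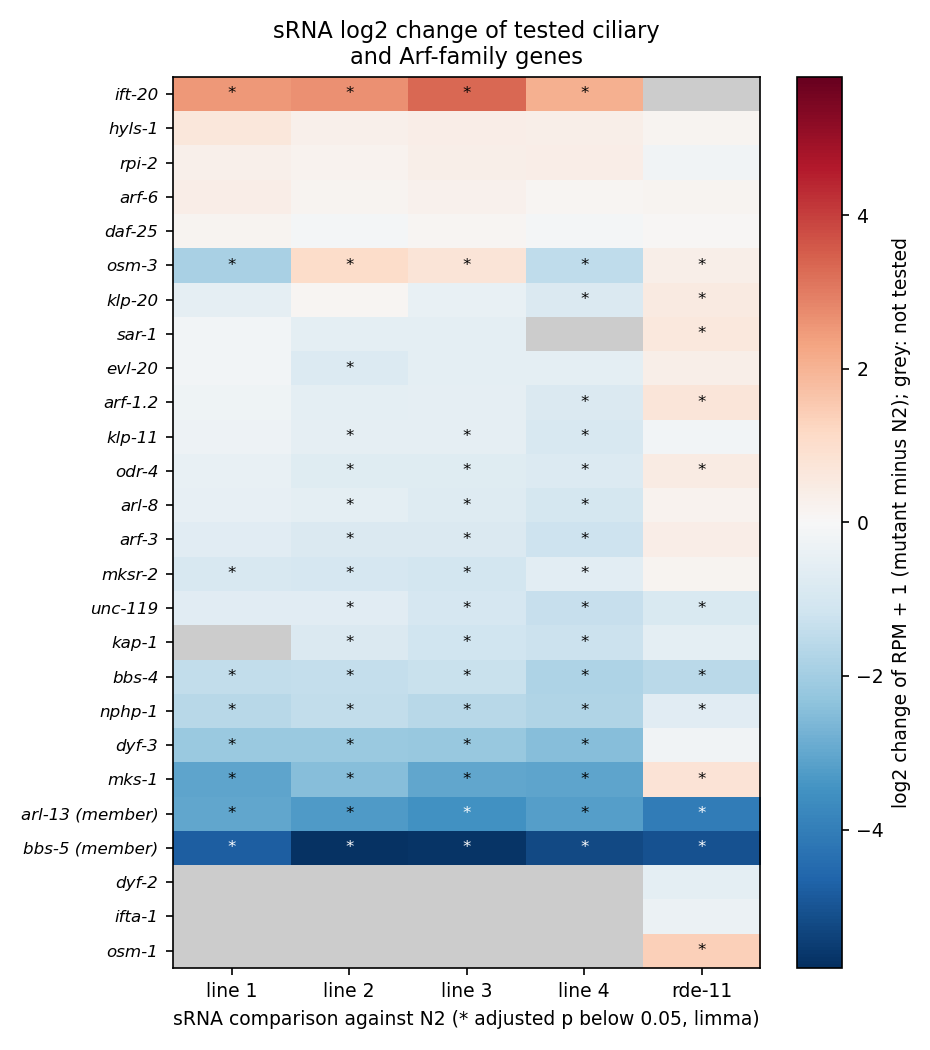
log2 change in sRNAs (RPM + 1, mutant minus N2) of each listed ciliary or Arf-family gene that passed the filter, for lines 1 to 4 and rde-11; stars mark an adjusted p under 0.05 in limma and grey marks genes not tested. Of all genes shown, bbs-5 has the lowest value in each of the 5 comparisons, and mks-1 falls in the lines and rises in rde-11. ift-20, which passed the filter through its level in the lines, is higher than N2 in all 4 lines.

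Among the other listed genes in the lines, those called with the largest changes in each direction (up to 3 per line) are described here beside bbs-4 above, with their values in rde-11. The transition zone protein gene mks-1 fell from 117.5 and 150.2 RPM in mixed N2 to between 13.8 and 23.8 in the 8 line libraries, with log2 changes of -3.04, -2.45, -2.99 and -3.08 (adjusted p from 5.90e-21 to 8.78e-11). In rde-11 it rose, from 177.5 and 177 to 329 and 296 RPM (log2 change 0.81, SE 0.11, adjusted p = 0.00119), against N2 libraries of its own, and the difference between lines and rde-11 was not tested. The IFT gene dyf-3 fell from 97.8 and 76.4 RPM to between 14.7 and 23.1 in the lines, with log2 changes of -2.15 to -2.47, and was at 111 and 81.6 RPM in N2 and 80.98 and 83.6 in rde-11 (log2 change -0.21, adjusted p = 0.368). The transition zone gene nphp-1 fell to between 9.24 and 12.4 RPM in the lines from 32.0 and 37.95, with log2 changes of -1.44 to -1.77, and fell by 0.64 on the log2 scale in rde-11 (adjusted p = 0.0256).

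Another IFT gene, ift-20, moved the other way. It rose from 5.46 and 4.97 RPM to between 21.8 and 62.9 in the line libraries, with log2 changes of 2.52, 2.63, 3.35 and 2.05 (adjusted p from 6.64e-16 to 1.13e-07). In young mothers it was under the filter, at 4.93 and 4.74 RPM in N2 against 1.72 and 1.83 in rde-11. The kinesin motor gene osm-3 differed in direction between lines. From 533 and 556 RPM in N2 it fell in line 1, to 137 and 157, and in line 4, to 211 and 181. It rose in lines 2 (1151 and 1098 RPM) and 3 (1008 and 857). The log2 changes of lines 1 to 4 were -1.89, 1.04, 0.77 and -1.47, all past the threshold. These calls for mks-1, dyf-3, nphp-1, ift-20 and osm-3 in the lines also held with TMM. The test among the 4 lines called osm-3 (adjusted p = 3.96e-08), ift-20 (adjusted p = 0.0201) and the kinesin gene klp-20 (adjusted p = 0.0154). These were 3 of the 18 other listed genes in that fit, where 8.64% of all genes were called.

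In rde-11 the IFT gene osm-1 rose from 25.6 and 20.4 to 60.3 and 60.9 RPM (log2 change 1.37, adjusted p = 0.000528). The gene arf-1.2, for an Arf GTPase of the secretory pathway, rose from 11.98 and 13.4 to 20.2 and 22.3 RPM (log2 change 0.70, adjusted p = 0.0198). The gene unc-119, whose product carries lipidated cargo released by ARL-3, fell from 15.03 and 16.5 to 9.11 and 7.31 RPM (log2 change -0.87, adjusted p = 0.0164). It passed the filter through its N2 level, as both rde-11 libraries were under 10 RPM, so this fall is a description. On the mRNA side 12 of these genes passed the filter and none was called by limma, where 4.18% of all genes were called higher and 10.3% lower. In the edgeR fit 62 were tested, none was called and 11 had an unadjusted p under 0.05, where 3.09% and 25.8% of all genes were.

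sRNAs assigned to a gene can come from a neighbour that overlaps it, since neither the strand setting nor the annotation of the counting is given in the sources used here. In the gene order of a later assembly (WBcel235) bbs-5 overlaps inpp-4B (row R01H10.7), and arl-13 overlaps rplp-1 (row rla-1) and the noncoding gene Y37E3.26. The sRNAs of R01H10.7 were at 85.9 and 68.3 RPM in mixed N2 and between 39.3 and 66.2 in the line libraries, and at 100.5 and 106 RPM in young N2 mothers against 111 and 111 in rde-11. Its log2 changes of -0.34, -0.54, -0.51 and -0.81 in the lines were close to the median of all genes. They passed the threshold in lines 2 to 4 (adjusted p = 0.0298, 0.0441 and 0.00159), and with TMM none did (-0.04, -0.08, 0.04 and -0.21). The line means of R01H10.7 were 56.4% to 78.3% of N2, where those of bbs-5 were 1.66% to 3.46%.

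For arl-13, rla-1 was at 22.1 and 24.3 RPM in mixed N2 and between 10.4 and 19.2 in the lines, with log2 changes of -0.27, -0.83, -0.83 and -0.74, past the threshold in lines 2 to 4. With TMM they were 0.02, -0.38, -0.29 and -0.16, and none was called. Y37E3.26, which overlaps arl-13, was tested in rde-11 only, where it passed the filter through its N2 level. It fell there from 43.2 and 34.8 RPM to 1.23 and 0.609 (log2 change -4.39, SE 0.26, limma adjusted p = 1.25e-05). In mixed N2 it was at 2.61 and 2.62 RPM and in the line libraries between 0 and 0.492. Reads of this gene and of arl-13 cannot be told apart without strand. The N2 mean of arl-13 itself was 221 RPM in both stages.

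**Figure D4:**
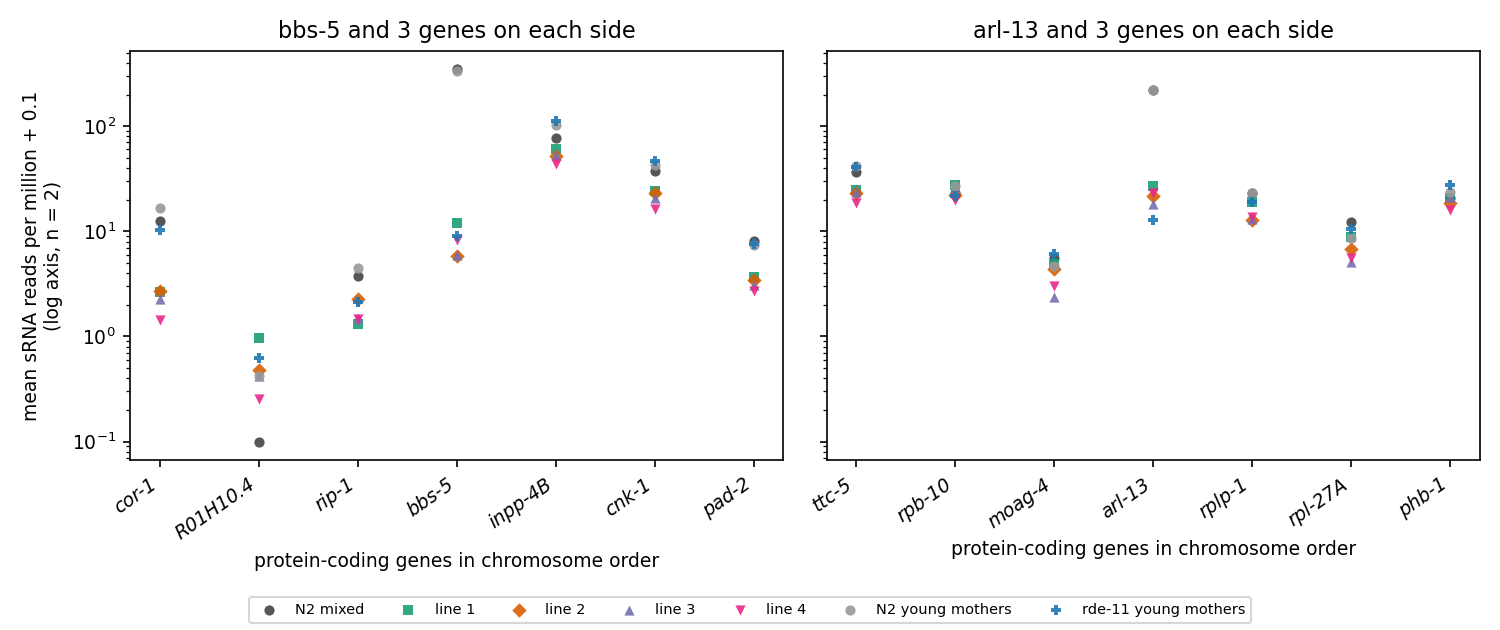
Mean sRNA level (RPM plus 0.1, log axis, 2 libraries each) of bbs-5, arl-13 and the 3 protein-coding genes on each side, in chromosome order of WBcel235. The N2 and mutant means are far apart at bbs-5 and arl-13 and closer at the overlapping inpp-4B and rplp-1. Near bbs-5, cor-1, rip-1 and pad-2 are also lower in the lines. The noncoding Y37E3.26, which overlaps arl-13, is not shown.

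Farther from bbs-5, cor-1 was at 10.4 and 14.7 RPM in mixed N2 and between 0.804 and 3.68 in the line libraries, where it was under the filter and not tested. In young mothers it fell from 17.4 and 15.5 RPM in N2 to 9.60 and 10.96 in rde-11 (log2 change -0.63, SE 0.19, adjusted p = 0.0404). The means of pad-2 and rip-1 (row R01H10.5) were also lower in the lines, from 2.62 to 3.55 RPM against 8.05 in mixed N2 and from 1.22 to 2.18 against 3.65. Both were under the filter and not tested. cor-1, pad-2 and rip-1 were named after their values were seen.

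Near the members with few sRNAs, other neighbours were also called by limma. T25F10.6, next to bbs-8, had a log2 change of 1.25 in rde-11 (adjusted p = 0.00154). For smg-1, near bbs-9, it was -1.43 in line 4 (adjusted p = 1.55e-07), and -0.84 with TMM (adjusted p = 0.00618). A further 2 such genes, picked after their values were seen, are described here. exc-9, the second gene from bbs-2, was at 75.7 and 80.1 RPM in mixed N2 and between 5.48 and 10.5 in the lines (log2 changes -2.99, -3.04, -3.40 and -3.25) and fell by 2.03 on the log2 scale in rde-11 (limma adjusted p = 0.00185). The mean of exc-9 was under 10 RPM in every line, so it passed the filter there through N2. As it was picked for its change, its values are a description. C38D4.7, next to arl-6, was at 539 and 503 RPM in N2 and between 768 and 966 in the lines (log2 changes 0.69, 0.78, 0.77 and 0.78), with a log2 change of -0.18 in rde-11 that was not called. Both exc-9 and C38D4.7 had far more sRNAs than bbs-2 or arl-6.

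Genes whose sRNA profile over the 14 libraries was most like that of bbs-5 were fbxa-216 (Pearson r = 0.977 of log2 of RPM + 1), T10B5.4 (0.977), Y44E3A.1 (0.973), C06B8.7 (0.970) and dgat-2 (0.969), among 6221 genes with a mean of at least 10 RPM in every sRNA table. arl-13 came in place 9 at 0.965. These values describe libraries that share N2 controls and the same mutants, and bbs-5 was chosen for its pattern, so no test is given. The group means of fbxa-216 were 88.1 RPM in mixed N2, 6.86 to 8.91 in the lines, 88.0 in young N2 and 7.38 in rde-11, while its mRNA was at 2.02 in N2 and 2.50 in line 1.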

How the data were processed

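Small RNAs of whole worms, treated with a 5′ polyphosphatase before ligation, and ribosomal-depleted mRNA were sequenced per the labels. The submitters' processing notes name cutadapt, Bowtie2, HISAT2, HTSeq, DESeq2 and the build ce10, with no role or version. The sRNA tables hold RPM values deposited by the authors, and the mRNA table holds a deposited signal on a per-million scale, headed fpm. The authors' deposited log2 fold changes and p-values were used only where named. All values were whole multiples of what 1 read is worth, within 0.02 of a read, which gave reads and depth. Columns left unmapped numbered 0.

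Log2(value + 1) was fitted with limma 3.58.1 (R 4.3.3, mean trend) for each table, keeping genes that averaged 10 or more in its 4 libraries, and a moderated F test was fitted over the 10 mixed-population libraries. A call is a Benjamini-Hochberg adjusted p under 0.05 over all genes tested. All 9 members lay under this filter in mRNA, so edgeR 4.0.16 (quasi-likelihood) was added on recovered reads of genes with at least 10. DESeq2 1.42.0, other scalings, pseudocounts and filters, the replicate block and each library left out were alternatives. The limma fit alone was tested on simulated reads, with the same dispersion for every gene and no shift in scaling. That simulation does not cover the scaling differences of these tables. Other genes were named by rule: up to 3 listed genes per direction and comparison with the largest called change, and the 5 most like bbs-5. Members, lists and tests were chosen with earlier results of these data known. Lines 1 to 4 share their N2 libraries. Intervals and the limit for a count of 0 cover counting error only.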

Additional observations from a re-analysis of the deposited data

Results flagged for a closer look

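The sRNA levels of 3 listed ciliary genes that are not among the 9 differed between the 4 meg-3 meg-4 lines, by limma's moderated F test over the 10 mixed-population libraries. For the kinesin gene osm-3 the adjusted p was 3.96e-08, with levels above N2 in lines 2 and 3 and below it in lines 1 and 4. For ift-20 it was 0.0201, with every line above N2. For klp-20 it was 0.0154, with N2 at 124 and 111 RPM, line 2 at 139 and 118.6, and line 4 at 72.5 and 57.9.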

How the results depend on the processing

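Over 148 alternative values the sRNA log2 differences from N2 ran from -6.04 to -4.39 for bbs-5 and from -4.43 to -2.48 for arl-13, a description since these values chose the set. Of 106 alternative counts of members called, 99 were equal to the reported one, which is no measure of robustness. The choice of the set fixes the sRNA counts against N2. In mRNA the settings with a filter of a mean of at least 10 tested no member, so their count could only be 0. With the filter at a mean of at least 1 RPM the count went from 2 to 3 in lines 2, 3 and 4, through bbs-1. Among the lines it was 0 as reported, 1 with the replicate block, and 0 to 1 when each library was left out, through bbs-5, and the cause was not tested. With the replicate block its adjusted p among the lines was 0.0211, and in mRNA 0.0222 at a log2 change of 0.81. The block changed no other call of a member among those tested. The labels do not say that equal numbers pair the libraries. The correlation of their deviations was 0.515 in line 1, 0.0781 in line 2, -0.125 in line 3, -0.214 in line 4, 0.404 in rde-11 and 0.229 in mRNA, so pairing in some tables was not settled. The block moved the count of all genes called lower from 939 to 2490 in line 1, and higher from 1435 to 2889 in rde-11. Among the lines, 549 genes were called, and between 78 and 1722 under the alternatives. With TMM the genes called lower went from 3526 to 663 in line 2, from 3616 to 577 in line 3 and from 4394 to 861 in line 4. In mRNA, members with few reads changed sign, and the cause was not tested. Without N2 replicate 2, bbs-1 was -0.22 and bbs-2 -0.11. Without line 1 replicate 1, bbs-1 was -0.021, osm-12 -0.47, arl-3 -0.19 and arl-6 -0.43. Without line 1 replicate 2, bbs-2 was -1.29 and bbs-9 -0.83. For bbs-2 the log2 change was -0.078 in limma with no filter, -0.14 in DESeq2 and -0.051 with the replicate block. Depth limits the sRNA values of the 6 members with the fewest reads and the mRNA values of all 9.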
